A study of Mus musculus with 4 samples.

Results

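Platelets and the megakaryocytes that shed them are marked by a small set of surface receptors and granule proteins, and 9 genes of that set were followed in fetal mouse lungs with reduced Fgf8: Itga2b, Gp1ba, Gp1bb, Gp9, Gp5, Gp6, Clec1b, Ppbp and Pf4. The genes were chosen by name, out of 28478 gene names on the array, and every probe of each was kept, which came to 1 probe a gene. The files name 8 of the 9 directly. The probe of Pf4 carries the older name Cxcl4 and was matched through its RefSeq accession. Lungs were taken at E18.5, shortly before birth, freed of large airways and vessels, and pooled by 3. Each of 4 dual-colour Agilent arrays held a wild type pool (Fgf8+/+, Cy3) and a hypomorph pool (Fgf8H/-, Cy5), so that n = 4 pools per genotype. All mice were of the c57nl7/sv129 background, as the labels spell it, and the wild types were littermates. The sample titles write the hypomorph as AP/N, which the sources used here do not explain. The labels name no promoter or Cre that would limit the alleles to a cell type, and single lungs cannot be read from a pool. Every hypomorph pool carried Cy5, so genotype and dye cannot be told apart.

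Platelets lack a nucleus and carry RNA left from the megakaryocyte, so transcripts of these genes in a tissue can come from both. The integrin αIIb (Itga2b) pairs with β3 to bind fibrinogen. The GPIb-IX-V complex (Gp1ba, Gp1bb, Gp9, Gp5) holds platelets to von Willebrand factor. GPVI (Gp6) is a receptor for collagen. The C-type lectin encoded by Clec1b binds podoplanin, a protein of lymphatic endothelium and of flat alveolar epithelium, and is known for keeping blood and lymphatic vessels apart. Ppbp and Pf4 encode chemokines stored in alpha granules. GATA1 and ETS factors such as FLI1 are the classical regulators of genes of this lineage, and the lung is a known seat of megakaryocytes.

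Of the 9 promoter windows in the RefSeq table (GRCm38.p6; 250 bases before to 50 after the start), 6 held a GATA motif (searched as AGATAA, as TGATAA, as AGATAG and as TGATAG, on both strands), which 29.8% of 32851 promoter windows held. An ETS motif (searched as AGGAAG and as CGGAAG, on both strands) was in 6 of 9 windows against 46.5% of all windows, and both motifs were in 4 of 9 against 12.6%. No GATA match overlapped an ETS match in the 9 windows. Windows with both motifs were those of Gp1ba, Gp1bb, Gp5 and Pf4. Itga2b and Gp9 had the ETS motif without the GATA motif, Gp6 and Clec1b had the GATA motif without the ETS motif, and Ppbp had neither. The 250 bases before the start are shown for the 4 genes where this stretch overlaps no annotated gene, since they set 3 genes that fell beside Pf4, which was not called, and show how the windows of the lineage differ. Motif matches are in capitals. The stretches are those of Itga2b (chr11:102469884-102470133, minus strand), Gp5 (chr16:30310782-30311031, minus strand), Ppbp (chr5:90768268-90768517, plus strand) and Pf4 (chr5:90772185-90772434, plus strand).
Itga2b: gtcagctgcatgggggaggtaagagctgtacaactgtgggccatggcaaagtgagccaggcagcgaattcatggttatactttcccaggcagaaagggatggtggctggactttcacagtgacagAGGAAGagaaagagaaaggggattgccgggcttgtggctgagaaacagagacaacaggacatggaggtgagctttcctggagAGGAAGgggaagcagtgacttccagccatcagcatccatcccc
Gp5: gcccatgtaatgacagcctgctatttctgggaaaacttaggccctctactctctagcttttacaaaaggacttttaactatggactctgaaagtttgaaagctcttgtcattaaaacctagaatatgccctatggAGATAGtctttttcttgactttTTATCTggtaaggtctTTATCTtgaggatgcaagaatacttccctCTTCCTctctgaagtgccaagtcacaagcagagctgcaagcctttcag
Ppbp: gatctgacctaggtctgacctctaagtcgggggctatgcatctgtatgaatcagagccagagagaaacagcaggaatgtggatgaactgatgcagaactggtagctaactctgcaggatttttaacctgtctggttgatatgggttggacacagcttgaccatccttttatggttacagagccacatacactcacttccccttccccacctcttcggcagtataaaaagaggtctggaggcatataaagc
Pf4: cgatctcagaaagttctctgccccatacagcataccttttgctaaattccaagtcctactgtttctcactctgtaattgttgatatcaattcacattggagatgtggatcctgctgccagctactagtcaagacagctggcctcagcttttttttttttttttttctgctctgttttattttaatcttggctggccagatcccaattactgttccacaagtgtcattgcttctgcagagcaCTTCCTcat
The GATA match of Pf4 lies after the start and is therefore not in its printed stretch. A match describes letters and is not a measured site.

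Of the 9 genes, 7 were lower in the hypomorph lungs and 0 were higher, where 12.2% of the 29991 tested probes were called lower and 24.9% were called in either direction. Gp9 and Clec1b fell most, followed by Ppbp, and Itga2b, Gp1ba, Gp5 and Gp6 fell less. The sizes for dim probes depended on the processing. With the processed signals Gp6 (-0.63) fell further than Ppbp (-0.61), and Gp1ba and Gp5 stood at -0.52 and -0.48. Gp1bb and Pf4 did not pass the test. The median of the 9 mean log2 ratios (hypomorph over wild type) was -0.396, against a median of -0.00453 over all tested probes. A probe was called at an adjusted p under 0.05 in limma's moderated test with Benjamini-Hochberg adjustment over all tested probes, and adjusted p below is from that test except where a permutation test is named. All 9 probes were well above background for both genotypes on 4 of 4 arrays and passed the filter on dim probes. In whole lung RNA, fewer platelets or megakaryocytes and less of a transcript per cell cannot be told apart.

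**Figure D1:**
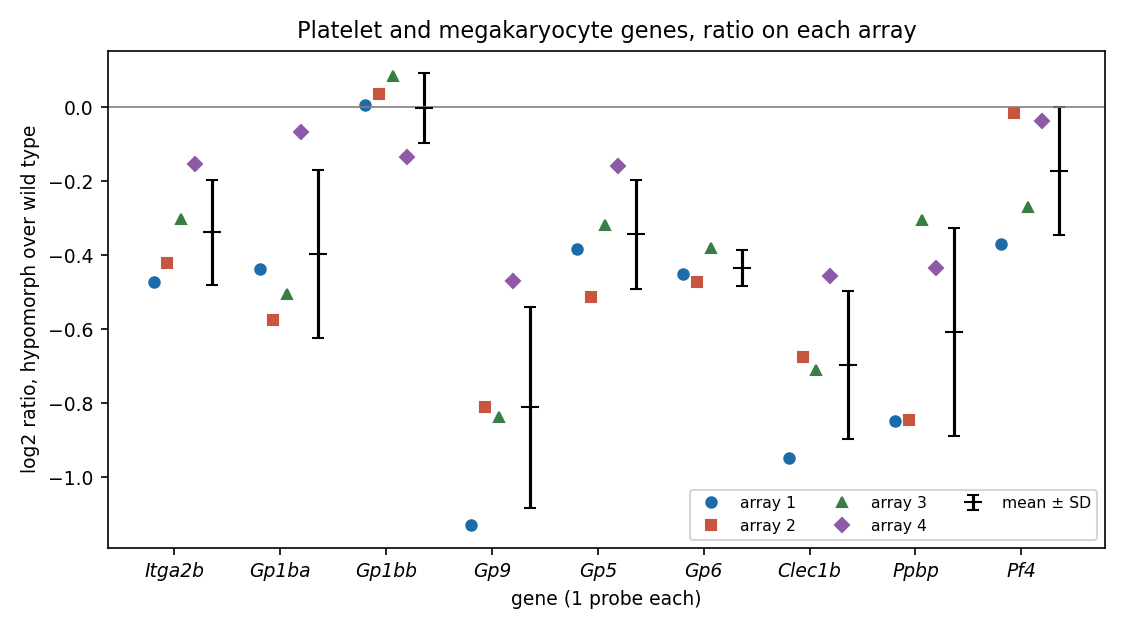
Each point is the log2 ratio of hypomorph over wild type on 1 array, for the single probe of each of the 9 genes, and the bar is the mean ± SD (n = 4 arrays, 3 for Gp6). The points of 8 genes lie below 0 on every array measured, with those of Pf4 reaching -0.02, and those of Gp1bb fall on both sides of 0.

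The integrin αIIb chain gene Itga2b (probe at chr11:102274229-102274437, build mm8, as are all probe positions given) had log2 signals of 8.99, 8.97, 9.06 and 8.98 in the wild type pools of arrays 1 to 4. The hypomorph pools on the same arrays had 8.52, 8.55, 8.76 and 8.83. Every wild type pool was thus above every hypomorph pool. The mean log2 ratio was -0.34 ± 0.14 (SD, n = 4), a 1.26-fold lower level (adjusted p = 0.0148). Its call was lost without array 2 (adjusted p = 0.083) and without array 3 (adjusted p = 0.0588).

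Within the von Willebrand factor receptor, 3 of the 4 subunit genes were lower. Gp9, the small subunit that stabilises the complex on the surface (chr6:87745297-87745356), had log2 signals of 10.59, 10.53, 10.12 and 10.04 in the wild type pools and 9.46, 9.72, 9.28 and 9.57 in the hypomorph pools. The pools did not overlap, and both genotypes were brighter on arrays 1 and 2 than the same genotype on array 3. The log2 ratios were -1.13, -0.81, -0.84 and -0.47, with a mean of -0.81 ± 0.27 (SD, n = 4), which is 1.76-fold lower (95% confidence interval of the log2 ratio -1.06 to -0.57; adjusted p = 0.00522). Of all tested probes, 0.373% had a lower mean ratio. The call of Gp9 was kept in each fit without 1 array.

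Gp1ba encodes the large chain that binds von Willebrand factor (chr11:70458108-70458167). Its log2 signals were 8.65, 8.67, 8.59 and 8.50 in the wild type pools and 8.21, 8.09, 8.08 and 8.43 in the hypomorph pools, again without overlap. On arrays 1 to 3 the ratio lay between -0.44 and -0.575, and on array 4 it was -0.07. The mean was -0.40 ± 0.23 (SD, n = 4), 1.32-fold lower (adjusted p = 0.0243). The call was lost without array 2 (adjusted p = 0.11) or without array 3 (adjusted p = 0.0921).

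Gp5, the subunit that thrombin cleaves (chr16:30228008-30228067), had log2 signals of 7.97, 7.89, 7.92 and 7.91 in the wild type pools and 7.59, 7.38, 7.60 and 7.75 in the hypomorph pools. The wild type pools were close together, and the hypomorph pools lay below them all. Its mean log2 ratio was -0.34 ± 0.15 (SD, n = 4), 1.27-fold lower (adjusted p = 0.0151), and the adjusted p was 0.0729 without array 2 and 0.061 without array 3. Its promoter, printed above, held 3 GATA matches and 1 ETS match.

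Gp1bb, the chain bound to Gp1ba by a disulphide bond (chr16:18534577-18534636), was the subunit gene that was not called. Its log2 signals were 8.10, 7.92, 8.10 and 8.34 in the wild type pools and 8.11, 7.96, 8.18 and 8.20 in the hypomorph pools, which overlapped. The mean log2 ratio was -0.0025 ± 0.09 (SD, n = 4; adjusted p = 0.975), with a 95% confidence interval from -0.13 to 0.12. In the RefSeq table the gene overlaps Septin5 (Sept5 in the files), a septin gene on the same strand, so a transcript that runs through both would add to the Gp1bb signal. The brighter Septin5 probe, 895 bases from the Gp1bb probe, had a mean log2 ratio of 0.06 ± 0.06 (adjusted p = 0.37), and the other, 3082 bases away, had 0.24 ± 0.16 and was higher (adjusted p = 0.0488). The part of such a transcript in the Gp1bb value was not tested.

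The differences between subunits were compared array by array with an exact sign-flip permutation test, two-sided, for which 4 arrays allow no p under 0.125. The ratio of Gp9 was below that of Gp1bb on 4 of 4 arrays, by a mean of -0.81 ± 0.34 in log2 (exact p = 0.125; 0.167 after Benjamini-Hochberg adjustment over the 4 pairs compared). Gp5 was below Gp1bb on 4 of 4 arrays, by -0.34 ± 0.22 (exact p = 0.125; adjusted 0.167). Gp1ba was below Gp1bb on 3 of 4 arrays, by -0.39 ± 0.32 (exact p = 0.25; adjusted 0.25). None of these differences could reach the threshold in this design.

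**Figure D2:**
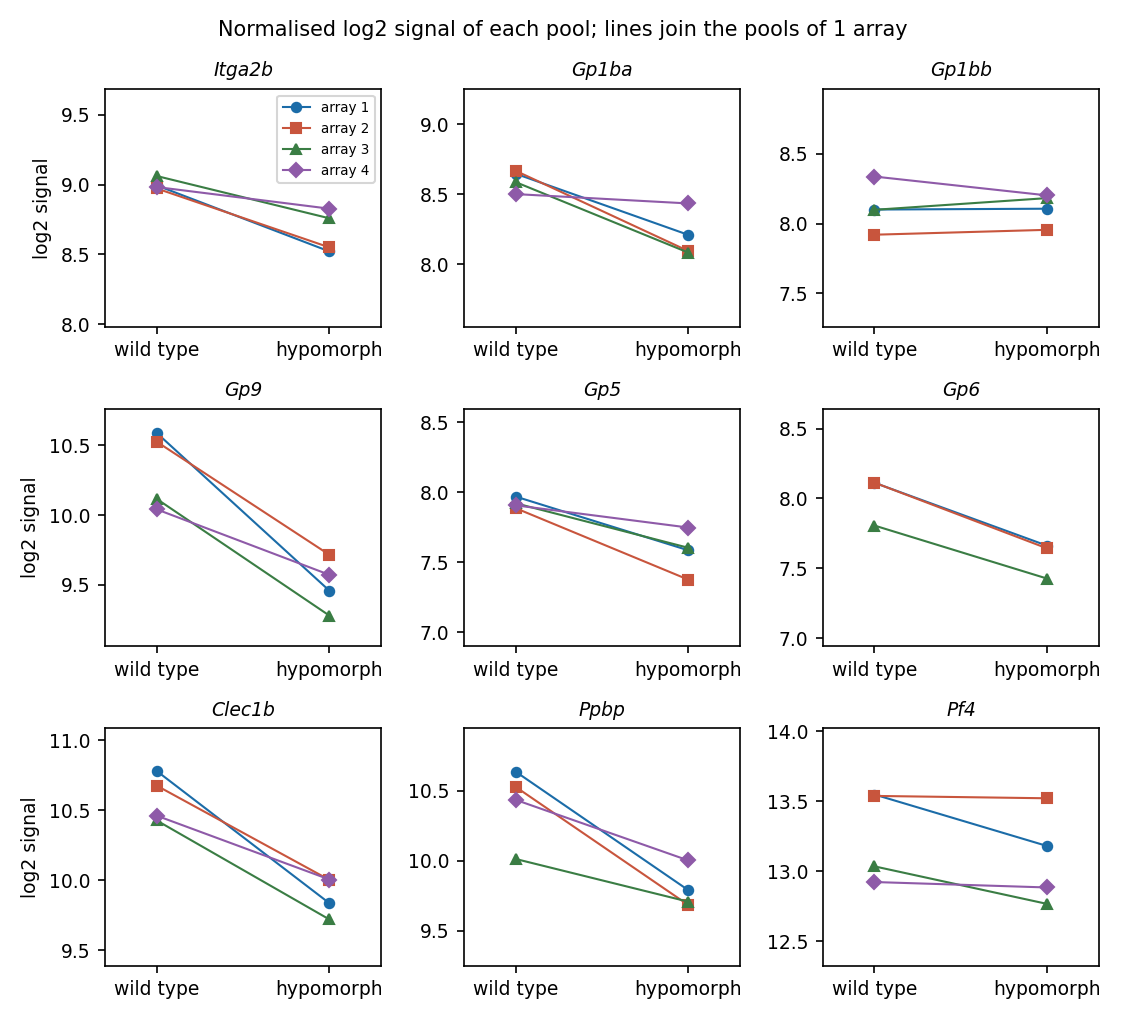
Each panel shows 1 gene, with the normalised log2 signal of its probe in the wild type and hypomorph pool of each array joined by a line; Gp6 has 3 arrays. Lines fall in every panel but those of Gp1bb, where they cross, and Pf4, where those of arrays 2 and 4 are nearly flat.

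The collagen receptor gene Gp6 (chr7:3971840-3971899) was measured on 3 arrays, since its spot on array 4 carried an outlier mark and was dropped from the fit. Its log2 signals were 8.11, 8.11 and 7.81 in the wild type pools and 7.66, 7.64 and 7.43 in the hypomorph pools, without overlap. The mean log2 ratio was -0.43 ± 0.05 (SD, n = 3), 1.35-fold lower (adjusted p = 0.00706). With the marked spot kept, the ratio on array 4 was -0.22. Without array 2 the adjusted p was 0.0603.

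Clec1b, the podoplanin receptor (chr6:129370890-129370949), had log2 signals of 10.78, 10.68, 10.43 and 10.46 in the wild type pools and 9.84, 10.002, 9.72 and 10.005 in the hypomorph pools. The highest hypomorph pool lay clearly below the lowest wild type pool. The mean log2 ratio was -0.70 ± 0.20 (SD, n = 4), 1.62-fold lower, and it had the smallest adjusted p of the 9 genes (0.00402). Of all tested probes, 0.7% had a lower mean ratio. The call was kept in each fit without 1 array, as for Gp9.

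The granule chemokine genes Ppbp and Pf4, which neighbour each other on chromosome 5, gave different calls, with no test setting their ratios apart. Ppbp was lower and Pf4 was not called. Ppbp (chr5:91845144-91845203) had log2 signals of 10.64, 10.53, 10.01 and 10.44 in the wild type pools and 9.79, 9.68, 9.71 and 10.003 in the hypomorph pools. The pools did not overlap, but the lowest wild type pool, on array 3, was only just above the highest hypomorph pool, on array 4. The mean log2 ratio was -0.61 ± 0.28 (SD, n = 4), 1.53-fold lower (adjusted p = 0.012; 0.067 without array 2).

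Pf4 (chr5:91848449-91848508) had log2 signals of 13.55, 13.54, 13.03 and 12.92 in the wild type pools and 13.18, 13.52, 12.77 and 12.88 in the hypomorph pools. Arrays 1 and 2 were brighter than arrays 3 and 4 in both genotypes, and the genotypes overlapped. The ratios were -0.37, -0.02, -0.27 and -0.04, with a mean of -0.17 ± 0.17 (SD, n = 4; adjusted p = 0.12) and a 95% confidence interval from -0.35 to 7.4e-05. Its mean was positive, at 0.13 (adjusted p = 0.187), when the arrays were only centred on their medians, a setting that moved the median of all tested probes to 0.1. The ratio of Ppbp was below that of Pf4 on 4 of 4 arrays, by -0.43 ± 0.33 in log2 (exact sign-flip permutation p = 0.125, two-sided; adjusted 0.167).

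The median ratio of the 9 genes was nearest 0 on array 4, where 8 were measured. Gp1bb, Pf4 and Ppbp had their ratio nearest 0 on another array. The median over the genes was -0.451, -0.512, -0.318 and -0.157 on arrays 1 to 4, where the median over all probes called lower was -0.343, -0.317, -0.276 and -0.246. Of the 6 lower genes measured on 4 arrays, 5 had their ratio nearest 0 on array 4, as did 42.1% of all probes called lower. The SD of all ratios was also smallest on array 4 (0.209, against 0.335, 0.241 and 0.238 on arrays 1 to 3). The part of the array in the size of these ratios was not tested. The 9 probes spanned a wide range of brightness, and in bins of brightness from 7 to 14 in log2 the median ratio of all probes lay between -0.036 and 0.00643, while 7.76% to 19.6% of probes were called lower.

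**Figure D3:**
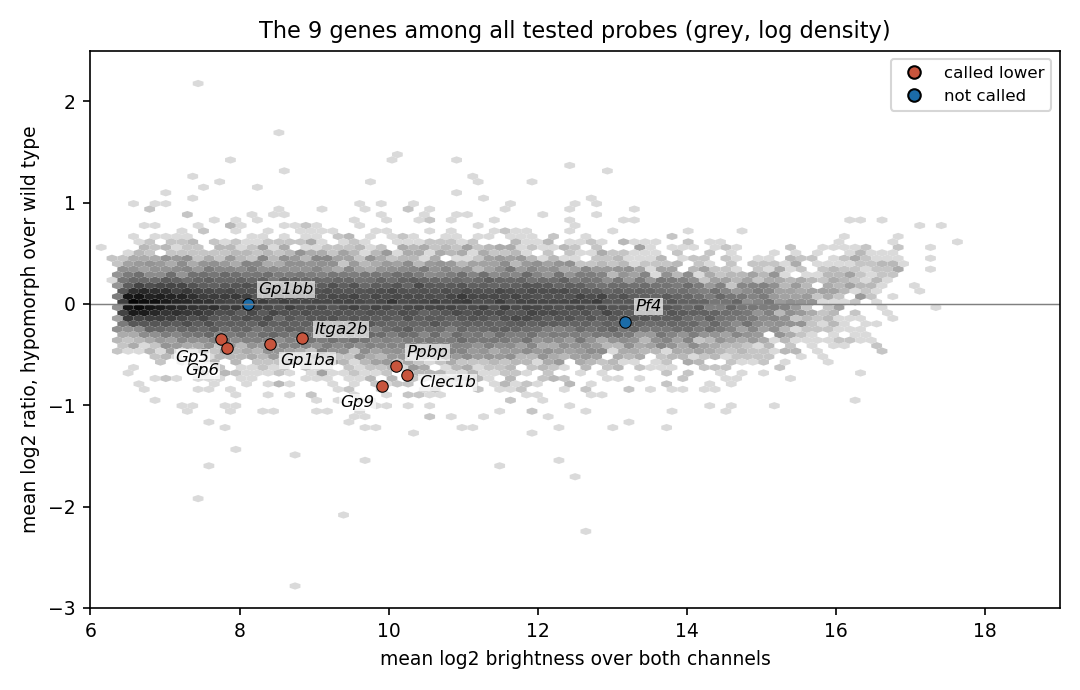
Mean log2 ratio against mean log2 brightness over both channels, with all 29991 tested probes as grey hexagons, darker where more probes fall (log scale). The 7 genes called lower (red) lie in the lower tail at log2 brightness between 7.75 and 10.2, with 0.373% to 6.49% of probes below each, while Gp1bb and Pf4 (blue) lie inside the cloud.

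Other genes of platelets were called in both directions. Of 22 tested genes for other platelet receptors and adhesion proteins, 4 were lower, 2 were higher and 16 did not pass, with a median log2 ratio of -0.0705; with median centring in place of loess, 2 were lower and 9 higher (median 0.172). Over all 20611 genes, each taken at its brightest probe, 13% were called lower and 13.6% higher, with a median of -0.00412. Treml1, a receptor held in alpha granules of platelets, had ratios of -0.84, -0.61, -0.53 and -0.16 and was lower at a mean of -0.53 ± 0.28 (adjusted p = 0.0172). As with most of the 9 genes, its ratio was nearest 0 on array 4. Its adjusted p was 0.0896 without array 2 and 0.0654 without array 3. Esam, an adhesion molecule shared with endothelium, was lower at -0.23 ± 0.06 (adjusted p = 0.0174) but stood at 0.17 (adjusted p = 0.0583) with median centring alone. Ptgir, the prostacyclin receptor, was higher at 0.45 ± 0.06 (adjusted p = 0.00292), while its dimmer probe had 0.0363. P2ry1, an ADP receptor, was higher at 0.24 ± 0.05 at its brighter probe (adjusted p = 0.0132; 0.0653 without array 2 and 0.0618 without array 3). That probe stood at 0.43 with median centring alone, and the other probe had 0.161 (adjusted p = 0.0727). Esam lost its call without any 1 of arrays 2 to 4 (adjusted p from 0.0585 to 0.0748). P2ry12, the other platelet ADP receptor, had -0.07 ± 0.05 (adjusted p = 0.231). F2rl2 and Mpig6b were not well above background and were not tested.

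Among 35 tested genes of platelet signalling, granules and cytoskeleton, 9 were lower and 4 were higher (median -0.0638), and with median centring alone 2 were lower and 18 higher (median 0.205). Nbeal2, which alpha granules need to form, was lower at -0.32 ± 0.06 (adjusted p = 0.00667), with -0.35 at its dimmer probe. F13a1, the A chain of factor XIII, which macrophages also make, was lower at -0.27 ± 0.06 (adjusted p = 0.0104). Hps1, needed for dense granules and other lysosome-related organelles, was higher at 0.42 ± 0.04 (adjusted p = 0.00295, but 0.163 with the channels as unpaired samples). Tln1, the talin that activates integrins in most cells, was higher at 0.36 ± 0.03 (adjusted p = 0.00388), although its dimmer probes had 0.126 and -0.0625, and it stood at 0.70 with median centring alone. Nbeal2 and F13a1 lost their calls with median centring alone (adjusted p = 0.0617 and 0.927) and without array 2 (adjusted p = 0.051 and 0.0526), and F13a1 also without array 3 (adjusted p = 0.0581).

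Of 25 tested regulators of megakaryocytes, 4 were lower and 4 were higher (median -0.0315), and with median centring alone 2 were lower and 11 higher (median 0.163). Mafk, a small MAF partner of NF-E2, was lower at -0.32 ± 0.04 (adjusted p = 0.00547), and Jak2, a kinase of cytokine signalling, was lower at -0.41 ± 0.07 on 3 arrays (adjusted p = 0.00904; array 4 was dropped for an outlier mark). Fli1, an ETS factor also of endothelium, was higher at 0.22 ± 0.05 at its brightest probe (adjusted p = 0.0164) and had -0.0293 at its other probe; the former stood at 0.55 with median centring alone. The call of Fli1 was lost without any 1 of arrays 2 to 4 (adjusted p from 0.0502 to 0.0812), that of Jak2 without array 2 or array 3 (adjusted p = 0.0712 and 0.0583), and those of Mafk and Jak2 with median centring alone (adjusted p = 0.177 and 0.12). Genes more particular to the lineage did not pass: Gata1 had -0.01 ± 0.03 (adjusted p = 0.831) and Nfe2 had 0.06 ± 0.21 (adjusted p = 0.611). Thpo, which encodes thrombopoietin, had -0.03 ± 0.20 at its brighter probe (adjusted p = 0.777), while its other probe was lower at -0.376 (adjusted p = 0.0491), so its probes disagreed. P2ry12, Gata1, Nfe2 and Thpo were singled out after their values were seen.

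The genes for ligands and partners of the 9 proteins were mostly not called: of 13 tested, 2 were lower and 0 higher (median -0.0281), and with median centring alone 1 was lower and 4 were higher (median 0.114). Podoplanin, the ligand of Clec1b, had a mean log2 ratio of -0.0014 ± 0.09 at its brighter probe (adjusted p = 0.986) and -0.14 ± 0.09 at the other (adjusted p = 0.0862), and stood at 0.18 (adjusted p = 0.0482) with median centring alone. Vwf, the ligand of Gp1ba, was lower at -0.19 ± 0.07 (adjusted p = 0.0312) but stood above 0, at 0.11, with that centring. It was not called without any 1 of arrays 2 to 4 (adjusted p from 0.0654 to 0.125). The call was also lost with the processed signals (adjusted p = 0.108), plain background subtraction (0.0602) and unpaired channels (0.349). Itgb3, the β3 partner of Itga2b, had -0.16 ± 0.08 at its brighter probe (adjusted p = 0.0535) and 0.515 at the other, which was called higher (adjusted p = 0.0184), so its probes disagreed. Fcer1g, the signalling chain that Gp6 needs, had -0.05 ± 0.14 (adjusted p = 0.557). Fgg, the fibrinogen gamma chain, had ratios of -1.83, -1.61, -0.24 and -0.31 (mean -1.0 ± 0.84; adjusted p = 0.052), low on arrays 1 and 2, while Fga and Fgb were not well above background. Fgg was called lower with median centring alone (-1.07, adjusted p = 0.00118), with the processed signals or the series table (-1.65, adjusted p = 0.0454) and with marked spots kept (adjusted p = 0.0498), and its adjusted p under the other alternatives was between 0.0504 and 0.184. Among the collagen genes, whose proteins bind Gp6, probes of the same gene disagreed. Col1a1 had 0.19 ± 0.16 at its brightest probe (adjusted p = 0.0819), while another was higher at 0.395 (adjusted p = 0.00843) and the third had 0.141. The brightest probe stood at 1.02 with median centring alone (adjusted p = 1.47e-05) and at -0.15 with the processed signals (adjusted p = 0.238). Col3a1 had 0.10 ± 0.19 at its brighter probe (adjusted p = 0.351) and was lower at the other, at -0.259 (adjusted p = 0.0134). Col1a2 had -0.03 ± 0.20 (adjusted p = 0.814) at its single tested probe. Cxcr2, a receptor for the product of Ppbp, had -0.15 ± 0.23 (adjusted p = 0.251), and Lrp1, a receptor that binds Pf4, was lower at -0.27 ± 0.02 (adjusted p = 0.00756; 0.0553 without array 2) and at 0.0020 with median centring alone.

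Markers of other blood and vessel cells were read on the same arrays, and their part in the values of the 9 genes was not tested. Of 15 tested erythroid markers, 3 were lower and 0 higher (median -0.0551). For each list, the signals of the tested genes with values on every array were summed, and the log2 of that sum is given. Bright genes weigh most in such a sum. For 14 erythroid markers it ran from 14.91 to 15.42 in the wild type pools and from 14.75 to 15.12 in the hypomorph pools. Kel, a red cell blood group gene, was lower at -0.34 ± 0.09 (adjusted p = 0.0077; 0.0542 without array 2). The globin genes Hba-a1 and Hbb-b1 were well above background but carried outlier marks and were not tested. Of 18 macrophage and monocyte markers, 7 were lower and 0 higher (median -0.0679), with summed signals from 15.17 to 15.4 in the wild type and from 15.11 to 15.23 in the hypomorph pools. The scavenger receptor genes Cd163 and Marco were lower, at -0.57 ± 0.06 (adjusted p = 0.00152) and -0.49 ± 0.20 (adjusted p = 0.0103; 0.0655 without array 2). With median centring alone, 3 erythroid markers were lower and 3 higher (median -0.0516), and 3 macrophage markers were lower and 5 higher (median 0.0334).

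Of 12 mast cell and basophil markers, 4 were lower and 2 higher (median -0.0887), with summed signals from 14.49 to 14.63 in the wild type and from 14.44 to 14.54 in the hypomorph pools. The mast cell protease genes Cma1 and Cpa3 were lower, at -0.46 ± 0.03 (adjusted p = 0.00197) and -0.48 ± 0.10 (adjusted p = 0.00359), and Mcpt2 was not well above background. The 2 called higher, named here for that reason, were Kit (0.21 ± 0.13, adjusted p = 0.0443) and Mcpt8 (0.18 ± 0.08, adjusted p = 0.0412). With median centring alone, 5 of these markers were lower and 1 was higher (median -0.173). Of 13 neutrophil markers, 1 was lower and 0 higher, and Elane was not well above background. The sums over 12 of them ran from 13.55 to 14.41 and from 13.55 to 14.48. Of 13 lymphocyte markers, 1 was lower and 0 higher, with sums from 12.18 to 12.42 and from 12.23 to 12.37, and Cd8a and Cd79a were too dim to be tested. With median centring alone, 3 neutrophil markers were lower and 1 was higher (median 0.00564), and 4 lymphocyte markers were lower and 1 was higher (median -0.117, against 0.0167 with loess). The sums of the mast cell, neutrophil and lymphocyte lists overlapped between genotypes.

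Endothelial markers, like the 9 genes, were lower more often than higher with loess. Of 20 tested, 10 were lower and 3 higher (median -0.179). The sum over 16 of them ran from 18.54 to 18.59 in the wild type pools and from 18.3 to 18.38 in the hypomorph pools, without overlap. Of 6 lymphatic endothelial markers, 3 were lower and 1 higher (median -0.176), with sums from 15.16 to 15.35 and from 14.57 to 14.73, also without overlap. Absence of overlap was not particular to these lists. It also held for 5 lung tissue markers (16.4 to 16.52 against 16.21 to 16.34) and for the lists of platelet receptors (19 genes summed) and of platelet signalling (33 genes summed). The sums of the platelet genes under study, over the 8 with values on every array, did overlap (13.67 to 14.16 against 13.35 to 13.92). Pf4 was by far the brightest of these genes (wild type mean 13.26, against 10.59 for Clec1b, the next). The sum therefore mostly follows Pf4, whose pools overlapped on their own. Lyve1, a hyaluronan receptor of lymphatic vessels, was lower at -0.79 ± 0.07 at its brighter probe (adjusted p = 0.00112) and at -0.277 at the other (adjusted p = 0.0327). Flt4 was the lymphatic marker called higher, at 0.17 ± 0.08 (adjusted p = 0.0473). With median centring alone the brighter probe of Lyve1 stood at -0.32 (adjusted p = 0.00533), and 1 lymphatic marker was lower and 2 were higher (median -0.0251). With the same centring the endothelial median was 0.281, with 0 lower and 13 higher, so its direction depended on the normalisation. Of the 9 platelet genes, 7 were still called lower and 0 higher. The probes of those 7 (log2 brightness 7.75 to 10.2) were dimmer than most endothelial probes. The bright probe of Pf4 (13.2) moved to 0.13 with that centring. The part of brightness in this difference between the lists was not tested.

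**Figure D4:**
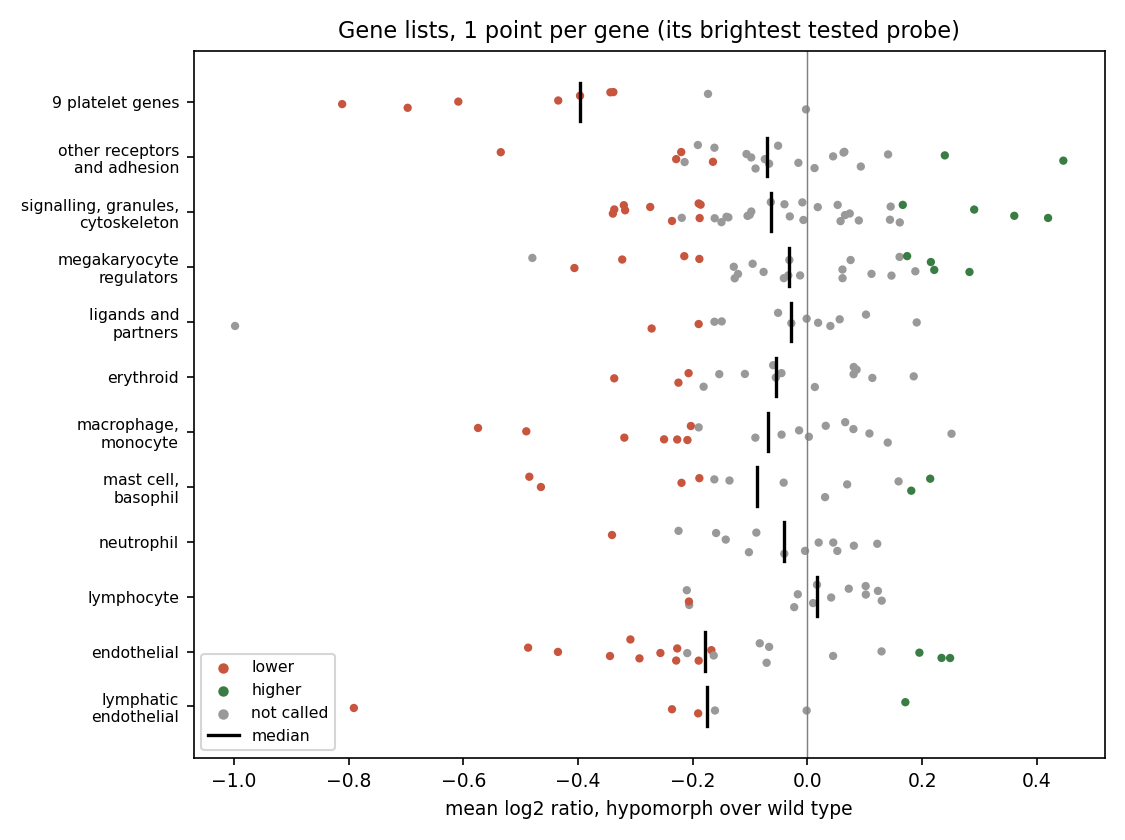
Mean log2 ratio of each tested gene at its brightest probe, in rows by gene list, with genes called lower in red, called higher in green and not called in grey, and the list's median as a black bar. The 9 platelet genes have a median of -0.396, and the medians of the other 11 lists lie between -0.179 and 0.0167 with loess; with median centring alone several of these change sign.

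All 10 lung tissue markers, surfactant genes among them, were well above background for both genotypes on 4 of 4 arrays. Fgf8 itself had a mean log2 ratio of -0.18 ± 0.11 (adjusted p = 0.0572) at 1 probe and was not well above background at the other, so the targeted gene did not pass the test with loess; with the processed signals, and with the series table made from them, it was lower at -0.25 (adjusted p = 0.0485). How its probes lie to the altered parts of the alleles is not stated by the labels. Spike-in controls recovered between 0.69 and 0.718 of the designed log ratios, so the ratios given are compressed. Of 43379 spots per array that were no controls, between 32491 and 34519 were well above background in a channel.

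The calls of the 9 genes differed between the processing settings tried. Gp9 and Clec1b were called lower under every one of the 17 alternatives. The same 7 genes were called lower under 14 of them. Those 14 include Aquantile scaling between arrays, which leaves every ratio unchanged and so could not alter a call. They also include the series table, which gave the same result as the processed signals it was made from. The changed dim-probe filters, 1 probe a gene, and the changed variance model left the 9 ratios as they were, so only the adjusted p moved. Without array 2, 2 genes were called (Gp9 and Clec1b), where 2.6% of all tested probes were called lower. Without array 3, 4 were called (Gp9, Gp6, Clec1b and Ppbp), where 4.15% of all were. With the channels as 8 unpaired samples, 4 were called (Gp1ba, Gp9, Ppbp and Clec1b), where 2.78% of all were, and Itga2b, Gp5 and Gp6 had adjusted p = 0.0529, 0.0511 and 0.0946. The median over the 9 genes lay between -0.517 and -0.337 under all of these alternatives.

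**Figure D5:**
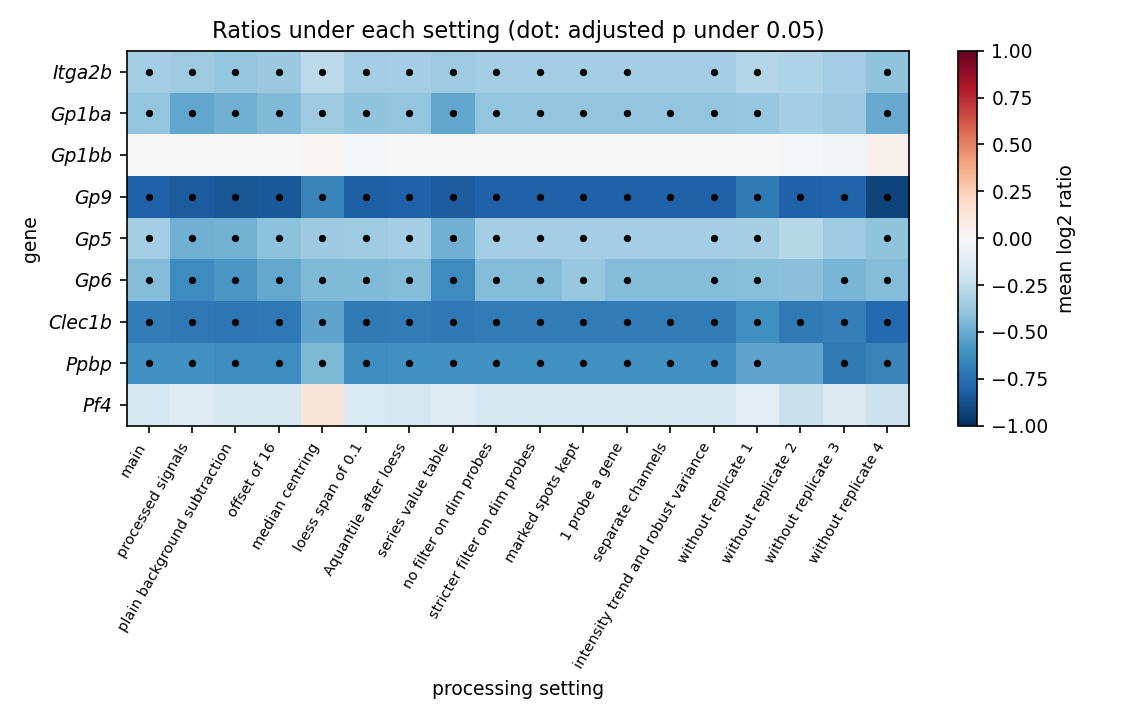
Mean log2 ratio of each gene (rows) under each processing setting (columns), from blue (lower in the hypomorph) to red (higher), with a dot where the adjusted p was under 0.05. Gp9 and Clec1b carry a dot in every column, Gp1bb and Pf4 in none, and the columns without replicate 2, without replicate 3 and with separate channels have the fewest dots.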

How the data were processed

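Total RNA from pooled E18.5 lungs was hybridised to 4 dual-colour Agilent arrays on 1 slide, read in 1 scan with no dye exchange, per the labels and file headers. The scanner software was Agilent Feature Extraction (version 9.5.1), as the submitters' processing notes state. The deposited intensities are mean and local background signals and dye-normalized processed signals, as their column headers say. Also deposited is a log10 ratio, red over green of the processed signals. The deposited series table holds log2 values equal to processed red over green on each array (correlation 1; column medians -0.024, -0.0019, -0.047 and -0.024).

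Intensities were corrected with normexp (offset 50; limma 3.58.1, R 4.3.3) and normalised within each array by loess (span 0.3, control spots at weight 0). Control and outlier-marked spots were dropped, spots of a probe averaged, and a probe was kept if 3 or more of the 4 arrays showed it well above background in either channel and 3 or more gave a value. Of 41174 probes, 24375 were named through a RefSeq accession. The mean log2 ratio of each of 29991 probes was set against 0 in limma's moderated test with Benjamini-Hochberg adjustment; the number of arrays limits the precision. Signals per pool are after loess and Aquantile. Lists took each gene's brightest tested probe. No set test was run.

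The 9 genes, the lists and the tests were chosen with earlier results of these data known. Named are the 9 genes, up to 4 genes per list with the smallest p, ligands and partners, and list genes not above background, with the exceptions stated; some list genes are not reported here. The array pairs 1 pool of each genotype, and the ratio keeps that pairing. The steps were tested on simulated data. Alternatives changed background correction, normalisation, dim-probe filter, outlier marks, probe choice, variance model, pairing and arrays. Positions within exons were not analysed here.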

Additional observations from a re-analysis of the deposited data

How the results depend on the processing

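The number of the 9 genes called lower was 7 under 14 of 17 alternatives. Among these, Aquantile after loess could not change a ratio, and the series table repeats the processed signals. As separate unpaired channels, with no replicate block, 4 genes were called lower and 1478 probes were called in all, against 7468 with the array's pairing kept. Named genes outside the 9 that lost their calls with unpaired channels included Hps1 (adjusted p = 0.163), Tln1 (0.143) and Ptgir (0.064). Treml1, P2ry1, Esam, Nbeal2, Vwf, Jak2, Fli1, Lrp1, Kel and Marco did as well. F13a1, Mafk, Cd163, Cma1, Cpa3 and Lyve1 kept theirs. Leaving out each replicate in turn gave between 2 and 7 of the 9 genes and between 1597 and 7981 probes called; the lowest values came without replicate 2, and 2407 probes were called without replicate 3 and 4812 without replicate 4. With median centring in place of loess, 14812 probes were called, 25.8% of them lower against 49.1% with loess. Named genes that changed sign with it included Esam (0.168), Vwf (0.114), Pdpn (0.184) and Lrp1 (0.0020). Of the 9 genes, Pf4 (0.13) and Gp1bb (0.011) also changed sign, and neither was called. With intensity trend and robust variance, 40.7% of calls were lower. The cause of these shifts was not tested. Each fit without an array also had fewer samples. All 9 probes were well above background in both channels on 4 of 4 arrays, and no dye exchange separates genotype from dye.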
